A study of Mus musculus with 9 samples.

Results

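The genes described here are 34 genes of fatty acid uptake, storage and oxidation in the mouse heart, and all 34 were found by symbol in both deposited gene tables, of 13853 genes for TAC and sham and 14073 genes for TAC+PUE and TAC. They were listed by their known roles and not by their values: 4 genes of uptake, 5 of activation and the carnitine shuttle, 2 that set malonyl-CoA, 10 of the beta-oxidation spiral, 3 for unsaturated fatty acids, 3 of electron transfer to ubiquinone, 3 thioesterase and uncoupling genes, and 4 of storage and lipolysis. RNA-seq was done on the hearts of male C57BL/6 mice, 3 each in the sham, TAC and TAC+PUE groups, aged 10 weeks by the labels and killed 21 days after surgery. Transverse aortic constriction (TAC) is a ligature on the aortic arch that loads the left ventricle, the sham mice had the operation with no ligature, and both of these groups were injected with saline. The TAC+PUE mice had TAC and daily injections into the peritoneum of 100 mg/kg puerarin, a plant isoflavone, begun 3 days before surgery. No group had puerarin without TAC. The comparisons ask which of the 34 mRNAs differed after pressure overload and which differed when overloaded mice were given puerarin.

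The adult heart takes most of its ATP from long-chain fatty acids. Lipoprotein lipase frees them from circulating triglyceride, carriers bring them across the sarcolemma, acyl-CoA synthetases activate them, and the carnitine shuttle takes them into mitochondria, where each turn of the beta-oxidation spiral shortens the chain and hands electrons to the respiratory chain. Many of these genes are targets of the nuclear receptors PPARα and the estrogen-related receptors, and in hypertrophied hearts of rodents the programme is widely known to be reduced.

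The values are FPKM, which are read counts per gene length and library size, so levels can be set beside each other between genes. Their sum per library was 259491 to 287871 in sham, 187473 to 220617 in TAC and 239798 to 251385 in TAC+PUE. The 13 mitochondrially encoded mRNAs took 31.6 to 42.9% of that sum in sham, 2.81 to 7.04% in TAC and 14.2 to 25.9% in TAC+PUE, and the rRNA-like transcripts Gm26917 and Gm42418 took 0.519 to 1.11%, 4.81 to 7.50% and 1.11 to 2.52%. Libraries of different composition can be scaled in different ways, so each direction below was also computed under 3 other scalings. These were by the median ratio over genes, with the rRNA-like transcripts removed, and with those and the mitochondrial mRNAs removed. In the last 2, all libraries were also brought to the same sum. Values given below with these transcripts removed hold both steps, and the part of each step was not tested. The atrial myosin light chain Myl7 was listed at 1.07, 1.06 and 0.857 FPKM in sham 1 to 3, at 79.8, 1.60 and 198 in TAC 1 to 3 and at 27.4, 708 and 245 in TAC+PUE 1 to 3. Cardiomyocyte markers were abundant in every library. In whole hearts, fewer cells of a type and less RNA per cell cannot be told apart.

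With the values as deposited, more of the 34 genes were lower after pressure overload than higher. With the rRNA-like transcripts removed and all libraries at the same sum, the balance turned to 5 lower and 13 higher. There 21.4% of all genes were lower and 47.9% higher. The direction differed between enzymes of the same step. In TAC against sham, 16 of the 34 were lower and 6 higher past an adjusted p of 0.05 in limma, and 12 did not pass. Over all 11687 genes tested, 37.7% were lower and 25.3% higher, beside 47.1 and 17.6% of the members. The members' share of lower calls was above that of all genes here, and below it with the rRNA-like transcripts removed. Their share of higher calls was below that of all genes both times. The median log2 fold change was -0.40 over the members and -0.12 over all genes. The largest falls were in Ucp3, Cd36, Cpt1a, Etfa and Acot13, and the largest rises among the genes above 1 FPKM in every library in Acads, Plin5 and Etfb. In TAC+PUE against TAC, 6 members were higher and 6 lower, where 32.9% of all 11788 genes tested were higher and 5.45% lower. By the median ratio 3 were higher and 12 lower, where 21.1% of all genes were higher and 20.2% lower. The members' median was 0.08 and that of all genes 0.24. Both comparisons use the same 3 TAC hearts, so a value that is off in TAC moves both. Of the 34 genes, 33 were at 1 FPKM or more in every library, and Acaa1b passed the filter on low values only through its TAC libraries, the group where it is high, so its differences are a description and its calls, which the counts hold, are read no further.

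**Figure D1:**
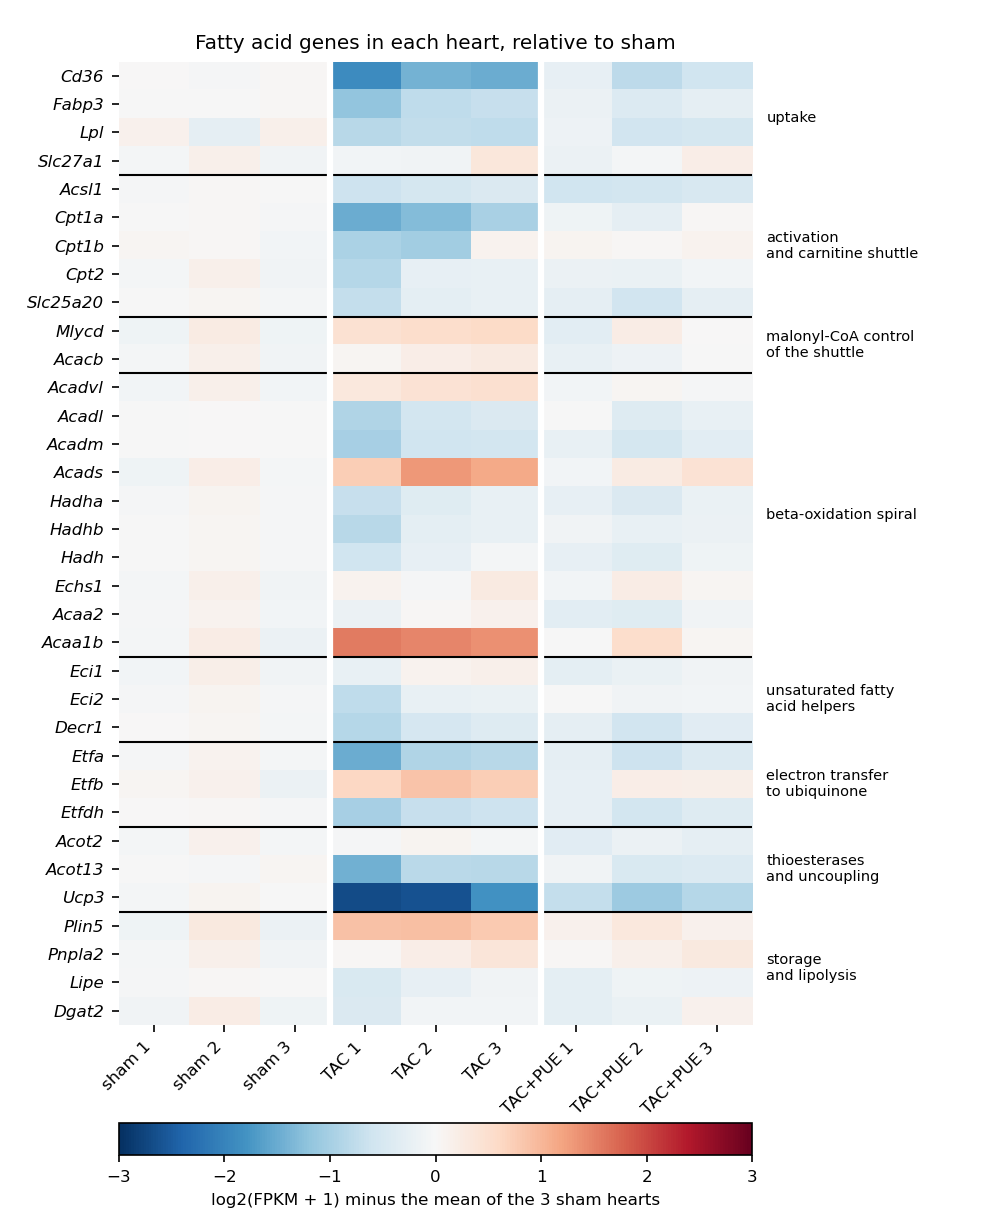
Level of the 34 genes in each of the 9 hearts, as log2(FPKM + 1) minus the mean of the 3 sham hearts, with rows in order of role and columns by group and replicate. Cd36, Cpt1a, Etfa, Acot13 and Ucp3 are blue in all 3 TAC hearts and paler in all 3 TAC+PUE hearts, while Acads, Acaa1b, Etfb and Plin5 are red in all 3 TAC hearts. TAC 1 is the bluest heart in most rows.

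**Figure D2:**
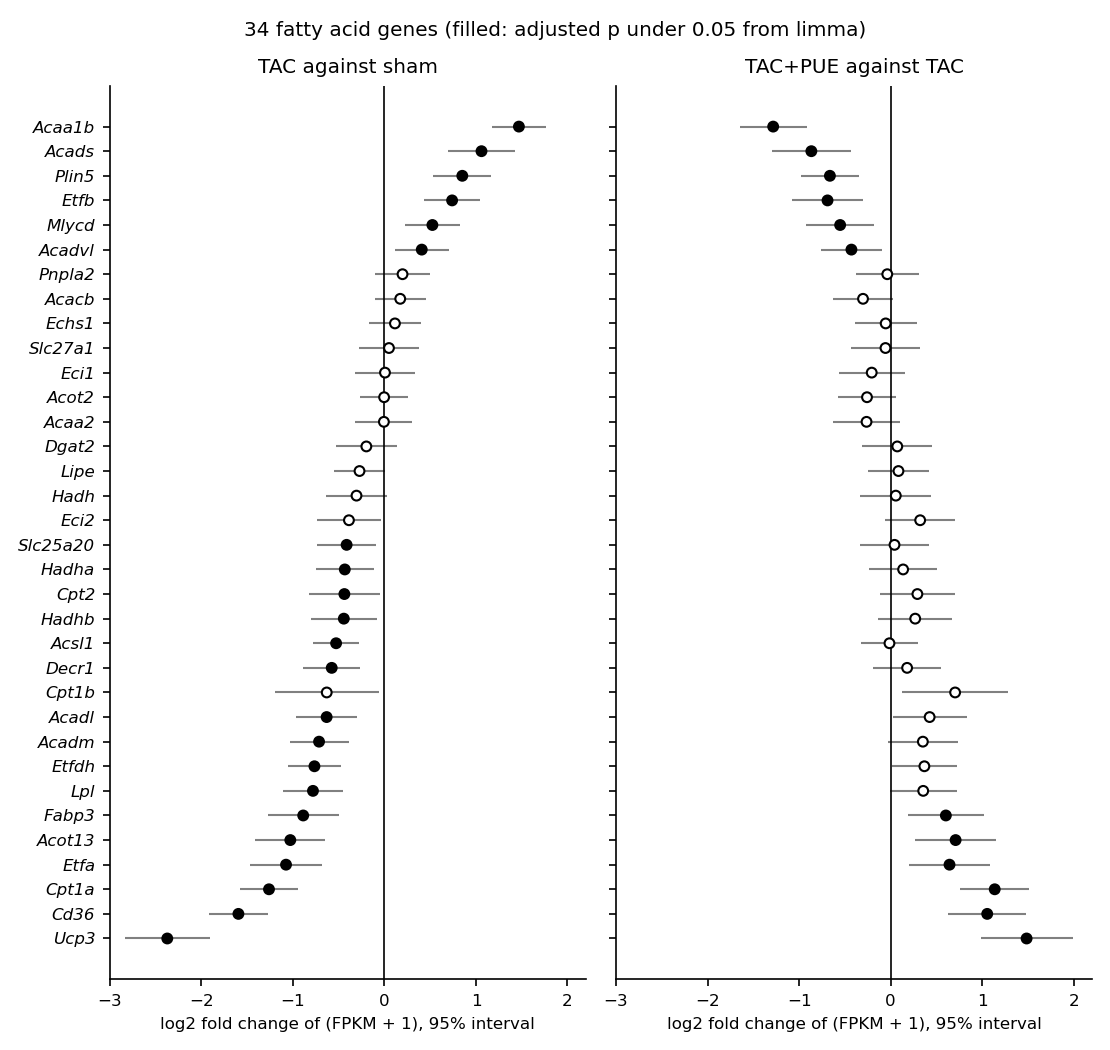
Log2 fold change of (FPKM + 1) with its 95% interval for each of the 34 genes in TAC against sham (left) and TAC+PUE against TAC (right), sorted by the left panel, with filled circles for an adjusted p under 0.05 in limma. Acaa1b passed the filter on low values only through TAC, so its points are a description. Ucp3 has the largest fall on the left, at -2.37, and the largest rise on the right, at 1.49. Both panels share the TAC hearts, and with the libraries scaled in other ways 13 genes on the left and 8 on the right change sign, none of them Ucp3.

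The promoters of the 3 members with the deepest falls, Ucp3, Cd36 and Cpt1a, are printed because these were also the 3 that rose in TAC+PUE under every scaling tried. Each run is 300 bases of RefSeq on GRCm38.p6, 5′ to 3′ on the gene's own strand. It goes from 250 bases before the gene start to 50 after it. Capitals mark the hexamer AGGTCA or its reverse complement TGACCT, the core sequence that nuclear receptors recognise.
Cd36, chr5:17835847-17836146, minus strand: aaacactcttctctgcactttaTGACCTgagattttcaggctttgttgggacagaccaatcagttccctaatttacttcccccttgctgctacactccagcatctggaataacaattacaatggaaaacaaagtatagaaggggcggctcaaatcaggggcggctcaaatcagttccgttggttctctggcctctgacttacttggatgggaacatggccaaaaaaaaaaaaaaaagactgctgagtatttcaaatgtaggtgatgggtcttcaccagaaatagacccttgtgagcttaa
Cpt1a, chr19:3323051-3323350, plus strand: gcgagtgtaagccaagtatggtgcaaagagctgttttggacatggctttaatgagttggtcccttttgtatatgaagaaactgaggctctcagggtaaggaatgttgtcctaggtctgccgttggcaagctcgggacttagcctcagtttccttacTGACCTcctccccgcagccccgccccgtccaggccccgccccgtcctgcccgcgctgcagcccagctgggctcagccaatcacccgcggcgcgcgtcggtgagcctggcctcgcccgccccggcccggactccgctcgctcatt
Ucp3, chr7:100472741-100473040, plus strand: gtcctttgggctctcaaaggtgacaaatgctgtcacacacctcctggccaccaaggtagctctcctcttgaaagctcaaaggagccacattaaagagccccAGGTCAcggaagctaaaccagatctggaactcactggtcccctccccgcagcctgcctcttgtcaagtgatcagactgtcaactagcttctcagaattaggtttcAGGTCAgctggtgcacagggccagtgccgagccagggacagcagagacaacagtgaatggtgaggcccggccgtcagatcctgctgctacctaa
Cd36 and Cpt1a have 1 such hexamer each and Ucp3 has 2. Of the 34 genes, 28 had windows in the RefSeq table, 33 windows in all. On either strand, AGGTCA stood in 9 of the 33 (27.3%) and in 16.3% of all 32851 windows of the table. The 8 genes that hold it are Acacb, Acadm, Acadvl, Cd36, Cpt1a, Echs1, Plin5 and Ucp3, of which some were higher and some lower in TAC. The longer site of the estrogen-related receptors, TNAAGGTCA, which contains that hexamer, was in 0 of the 33 and in 1.28% of all windows. The direct repeat of AGGTCA with 1 base between its copies, which PPAR binds with RXR, was in 0 of the 33 and in 0.0396% of all. GGGCGG was in 63.6% of the members' windows and 35.7% of all, CCAAT in 45.5 and 37.4%, and TATAAA in 3.03 and 13.6%. These are matches of letters in a short window and no measure of binding.

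Of the 4 uptake genes 3 fell in TAC (75%, beside 37.7% of all genes tested), and Cd36, the fatty acid translocase of the sarcolemma, fell most. Cd36 was at 291, 281 and 293 FPKM in sham 1 to 3, at 77.6, 108 and 102 in TAC 1 to 3 and at 244, 166 and 192 in TAC+PUE 1 to 3. The 3 groups did not overlap, with TAC+PUE between the other groups. The log2 fold change was -1.60 ± 0.15 (SE, adjusted p = 4.00e-05) in TAC against sham and 1.06 ± 0.19 (adjusted p = 0.00407) in TAC+PUE against TAC, and both calls held under all 4 scalings, at -1.73 to -1.09 and 0.74 to 1.06. Fabp3, the fatty acid binding protein of heart cytosol and the most abundant of the 34, was at 1700.0, 1684 and 1746 FPKM in sham, 751, 1000.4 and 1051 in TAC and 1518, 1296 and 1407 in TAC+PUE. It was lower in every TAC heart than in every other heart, with a log2 fold change of -0.89 ± 0.17 against sham (adjusted p = 0.00138), and higher in TAC+PUE than in TAC by 0.60 ± 0.19 (adjusted p = 0.0276). The fall in Fabp3 no longer passed with the rRNA-like transcripts removed, at -0.38 (adjusted p = 0.0597). Its rise no longer passed without TAC 1, at 0.45 (adjusted p = 0.0614), TAC 2, at 0.66 (adjusted p = 0.0556), TAC+PUE 1, at 0.55 (adjusted p = 0.0851), or TAC+PUE 3, at 0.60 (adjusted p = 0.0799), nor by the median ratio, at 0.29 (adjusted p = 0.148), or with the rRNA-like transcripts removed, at 0.28 (adjusted p = 0.156). Lpl, lipoprotein lipase, was at 259, 194 and 262 FPKM in sham, 131, 142 and 138 in TAC and 212, 158 and 162 in TAC+PUE. The TAC hearts lay below all others and within a narrow range, and Lpl fell by 0.78 ± 0.15 (adjusted p = 0.00112). With the rRNA-like transcripts removed, its value was -0.28 (adjusted p = 0.0994). Its TAC+PUE difference of 0.36 ± 0.17 did not pass (adjusted p = 0.112). Slc27a1, a fatty acid transport protein, was at 14.9 to 21.3 FPKM over the 9 hearts with all groups overlapping, and its log2 difference of 0.05 ± 0.15 (95% interval -0.28 to 0.37) changed sign with the scaling and passed with the rRNA-like transcripts removed, at 0.53 (adjusted p = 0.00906).

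**Figure D3:**
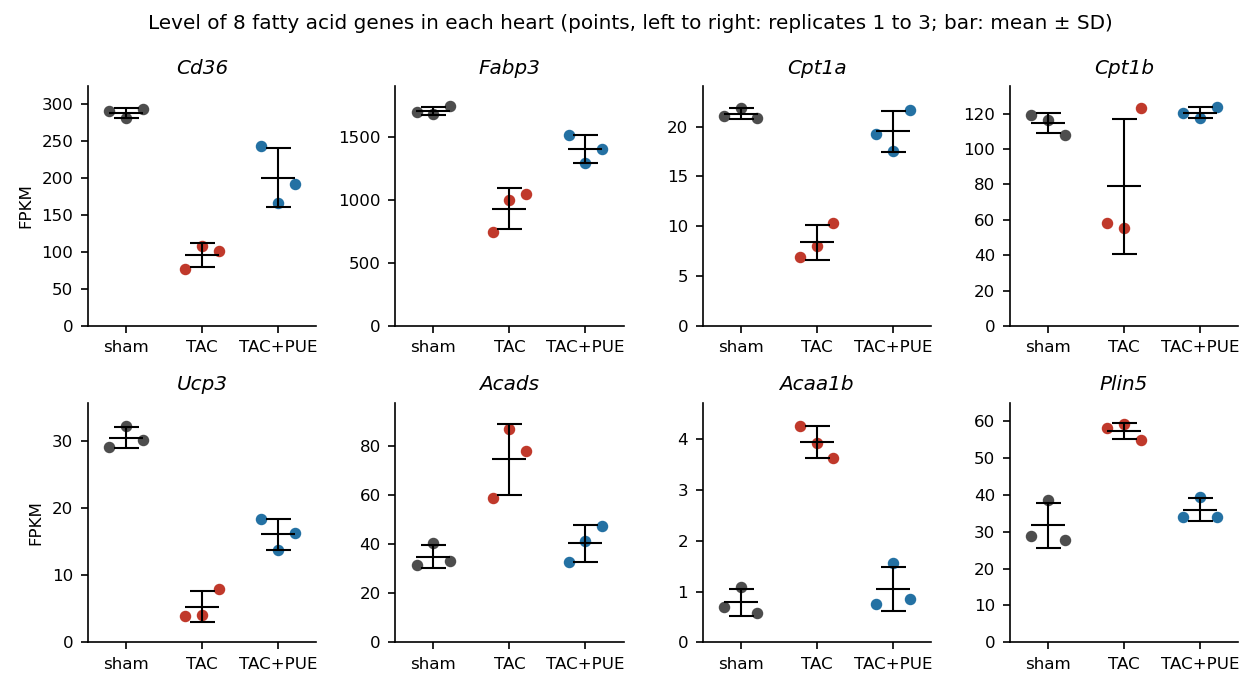
FPKM of 8 of the genes in each heart, with the 3 points of a group being replicates 1 to 3 from left to right and bars the mean ± SD (n = 3). Cd36, Fabp3, Cpt1a and Ucp3 are lowest in TAC and Acads, Acaa1b and Plin5 highest, with no overlap between TAC and either other group, while the 3 TAC hearts are split in Cpt1b.

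Of the 5 genes of activation and the carnitine shuttle, 4 fell in TAC (80%, beside 37.7% of all genes tested). Acsl1, the main long-chain acyl-CoA synthetase of heart, was at 69.2, 72.1 and 69.7 FPKM in sham, 45.2, 48.6 and 51.8 in TAC and 46.3, 47.8 and 50.1 in TAC+PUE. TAC and TAC+PUE overlapped fully and both lay below sham, so that Acsl1 fell by 0.53 ± 0.11 (adjusted p = 0.00248) in TAC and differed by -0.01 ± 0.14 (95% interval -0.33 to 0.30) between TAC+PUE and TAC. Its value in TAC was -0.031 (adjusted p = 0.824) with the rRNA-like transcripts removed. The outer membrane step, carnitine palmitoyltransferase 1, has a liver form and a muscle form, encoded by Cpt1a and Cpt1b. Cpt1a was at 21.1, 21.9 and 20.9 FPKM in sham, 6.91, 7.98 and 10.3 in TAC and 19.3, 17.6 and 21.7 in TAC+PUE. Each TAC heart lay below all others, and sham and TAC+PUE overlapped. Cpt1a fell by 1.26 ± 0.14 (adjusted p = 7.79e-05) in TAC and rose by 1.14 ± 0.17 (adjusted p = 0.00328) in TAC+PUE, and both calls held under all 4 scalings. Cpt1b was at 119, 116 and 108 FPKM in sham, 58.4, 55.3 and 123 in TAC and 120.4, 118 and 123 in TAC+PUE. TAC 3 stood at the level of the sham hearts and TAC 1 and 2 well below it, and neither comparison passed, at -0.63 ± 0.26 (adjusted p = 0.0514) and 0.70 ± 0.26 (adjusted p = 0.0546). Without TAC 3, 1 of the libraries with high Myl7, the values were -0.997 (adjusted p = 0.00039) and 1.07 (adjusted p = 0.00493). By the median ratio they were -0.47 (adjusted p = 0.0952) and 0.40 (adjusted p = 0.196). With the rRNA-like transcripts removed they were -0.13 (adjusted p = 0.636) and 0.39 (adjusted p = 0.235). With the mitochondrial mRNAs removed as well they were -0.76 (adjusted p = 0.0227) and 0.65 (adjusted p = 0.0652).

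Cpt2, the enzyme of the inner membrane, and Slc25a20, the carnitine-acylcarnitine carrier between both, fell less. Cpt2 was at 53.9, 62.8 and 52.6 FPKM in sham, 30.8, 47.6 and 47.9 in TAC and 50.1, 49.1 and 53.2 in TAC+PUE, with TAC 1 far below the rest. Its log2 fold change was -0.44 ± 0.17 (adjusted p = 0.0486) in TAC and 0.29 ± 0.19 (adjusted p = 0.236) in TAC+PUE against TAC. Slc25a20 was at 26.1, 27.4 and 25.0 FPKM in sham, 15.5, 21.2 and 22.1 in TAC and 21.4, 17.3 and 21.5 in TAC+PUE, where every overloaded heart lay below every sham heart. It was -0.41 ± 0.14 (adjusted p = 0.028) in TAC and 0.04 ± 0.17 (adjusted p = 0.865) in TAC+PUE against TAC. With the rRNA-like transcripts removed the sign of both turned, to 0.057 (adjusted p = 0.76) for Cpt2 and 0.070 (adjusted p = 0.631) for Slc25a20. The Cpt2 call was also lost by the median ratio, at -0.28 (adjusted p = 0.0558), with a pseudocount of 0.1, at -0.45 (adjusted p = 0.0538), and with no filter, at -0.44 (adjusted p = 0.0543). It was lost as well without sham 1, at -0.47 (adjusted p = 0.0726), sham 2, at -0.36 (adjusted p = 0.154), sham 3, at -0.49 (adjusted p = 0.0651), or TAC 1, at -0.23 (adjusted p = 0.0737), and the Slc25a20 call without sham 1, at -0.42 (adjusted p = 0.0748), sham 2, at -0.38 (adjusted p = 0.0848), or sham 3, at -0.44 (adjusted p = 0.0554).

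Malonyl-CoA inhibits carnitine palmitoyltransferase 1, and its decarboxylase Mlycd was higher in TAC while the carboxylase Acacb that makes it did not pass. Mlycd was at 22.6, 29.5 and 22.4 FPKM in sham, 34.3, 36.1 and 37.3 in TAC and 19.6, 29.0 and 24.7 in TAC+PUE, so TAC lay above both other groups and those overlapped. It rose by 0.52 ± 0.13 (adjusted p = 0.00613) in TAC and was lower in TAC+PUE, at -0.55 ± 0.17 (adjusted p = 0.0241). The second call was lost without TAC+PUE 1, at -0.41 (adjusted p = 0.104), TAC+PUE 3, at -0.57 (adjusted p = 0.0586), TAC 2, at -0.55 (adjusted p = 0.0595), or TAC 3, at -0.52 (adjusted p = 0.0596). Acacb was at 49.2, 57.2 and 47.8 FPKM in sham, 53.3, 58.8 and 62.1 in TAC and 44.1, 45.7 and 50.9 in TAC+PUE. Its values were 0.17 ± 0.13 (adjusted p = 0.249) and -0.30 ± 0.15 (adjusted p = 0.127). By the median ratio Acacb passed in both, at 0.33 (adjusted p = 0.00977) and -0.61 (adjusted p = 0.00941). The ratio of Acacb to Mlycd, which no scaling of a library changes, was 2.18, 1.94 and 2.13 in sham, 1.55, 1.63 and 1.66 in TAC and 2.25, 1.57 and 2.06 in TAC+PUE, lower in each TAC heart than in each sham heart.

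The 4 acyl-CoA dehydrogenases, which take the first step of each turn and divide the work by chain length, moved in opposite directions. Acadl and Acadm, for long and medium chains, fell in TAC, and Acadvl and Acads, for very long and short chains, rose. Acadl was at 348, 357 and 352 FPKM in sham, 187, 242 and 259 in TAC and 349.9, 268 and 304 in TAC+PUE, and Acadm at 168, 172 and 169.7, 84.5, 112 and 116 and 145, 117 and 136. Every TAC heart lay below every other heart in both genes. Their log2 fold changes in TAC were -0.63 ± 0.15 (adjusted p = 0.00436) and -0.71 ± 0.15 (adjusted p = 0.0017), and with the rRNA-like transcripts removed they were -0.13 (adjusted p = 0.428) and -0.21 (adjusted p = 0.168). Their TAC+PUE values, 0.43 ± 0.18 (adjusted p = 0.0884) and 0.35 ± 0.17 (adjusted p = 0.132), did not pass, though in a joint fit of the 9 libraries Acadl did, at 0.43 (adjusted p = 0.038). Acads was at 31.6, 40.4 and 33.2 FPKM in sham, 58.9, 87.3 and 78.0 in TAC and 32.6, 41.3 and 47.5 in TAC+PUE. The TAC hearts lay above all others and the other groups overlapped, with log2 fold changes of 1.06 ± 0.16 (adjusted p = 0.000347) in TAC and -0.87 ± 0.19 (adjusted p = 0.00717) in TAC+PUE, both called under all 4 scalings. Acadvl was at 166, 196 and 164 FPKM in sham, 218, 237 and 244 in TAC and 167, 182 and 169.9 in TAC+PUE. It rose by 0.41 ± 0.13 (adjusted p = 0.0205) in TAC and fell by 0.43 ± 0.15 (adjusted p = 0.0433) in TAC+PUE. The rise was lost without sham 1, at 0.37 (adjusted p = 0.111), sham 3, at 0.36 (adjusted p = 0.108), or TAC 2, at 0.39 (adjusted p = 0.0563), and the fall without any 1 of the TAC+PUE libraries, at -0.40 (adjusted p = 0.122), -0.47 (adjusted p = 0.0526) and -0.42 (adjusted p = 0.155), or without TAC 2, at -0.41 (adjusted p = 0.139), or TAC 3, at -0.39 (adjusted p = 0.0987), and with a pseudocount of 5, at -0.42 (adjusted p = 0.051).

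Hadha and Hadhb encode the α and β chains of the mitochondrial trifunctional protein, which does the remaining steps on long chains. They start 273 bases apart on opposite strands of chromosome 5, and the stretch that their promoter windows share is printed because both chains are read outward from it. It is 228 bases of RefSeq on GRCm38.p6, chr5:30155003-30155230, plus strand, with its 1 GGGCGG box in capitals.
Hadha and Hadhb shared window: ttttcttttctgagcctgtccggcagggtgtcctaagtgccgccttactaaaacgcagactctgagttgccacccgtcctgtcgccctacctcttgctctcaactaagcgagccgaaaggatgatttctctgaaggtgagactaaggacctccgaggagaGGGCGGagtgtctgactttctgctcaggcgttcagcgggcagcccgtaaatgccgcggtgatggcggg
Hadha was at 107, 117 and 107 FPKM in sham, 68.0, 84.8 and 93.6 in TAC and 92.1, 81.0 and 96.3 in TAC+PUE, and Hadhb at 93.9, 98.8 and 92.9, 53.3, 78.1 and 81.4 and 87.7, 81.1 and 83.9. TAC lay below sham in both genes, at -0.43 ± 0.14 (adjusted p = 0.0214) and -0.44 ± 0.16 (adjusted p = 0.0354), and TAC+PUE overlapped TAC. With the rRNA-like transcripts removed both turned in sign, to 0.067 (adjusted p = 0.665) and 0.055 (adjusted p = 0.739). Leaving out sham 1, 2 or 3 also lost both calls, with Hadha at -0.45 (adjusted p = 0.0573), -0.39 (adjusted p = 0.0659) and -0.46 (adjusted p = 0.0527) and Hadhb at -0.45 (adjusted p = 0.0738), -0.42 (adjusted p = 0.0928) and -0.46 (adjusted p = 0.0703). The ratio of Hadha to Hadhb within a heart was 1.14, 1.18 and 1.15 in sham, 1.28, 1.09 and 1.15 in TAC and 1.05, 0.999 and 1.15 in TAC+PUE, with overlap between the groups (TAC against sham, two-sided exact permutation p = 0.80).

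The other enzymes of the spiral differed among themselves. Hadh, the hydroxyacyl-CoA dehydrogenase of shorter chains, was at 78.5, 82.2 and 77.5 FPKM in sham, 51.7, 66.6 and 76.3 in TAC and 66.6, 61.0 and 72.9 in TAC+PUE and did not pass (TAC against sham -0.31 ± 0.15, adjusted p = 0.0983), though without TAC 3 it was -0.43 (adjusted p = 0.0291). Echs1, the enoyl-CoA hydratase of shorter chains, was at 17.5 to 23.0 FPKM over the 9 hearts, and Acaa2, the mitochondrial thiolase, was at 220.8 to 315 FPKM. Neither passed in either comparison with the values as deposited, and the signs of Hadh, Echs1 and Acaa2 in TAC against sham depended on the scaling. Echs1 was 0.60 (adjusted p = 0.00429) and Acaa2 0.50 (adjusted p = 0.0117) in TAC against sham with the rRNA-like transcripts removed. Acaa2 was -0.57 (adjusted p = 0.0137) in TAC+PUE against TAC by the median ratio. Acaa1b, 1 of the pair of peroxisomal thiolases of the mouse, was far less abundant, at 0.703, 1.10 and 0.587 FPKM in sham, 4.26, 3.93 and 3.64 in TAC and 0.763, 1.56 and 0.849 in TAC+PUE. The TAC hearts lay above all others with no overlap, and the ratio of means was 4.96 in TAC against sham. These values are a description, since the gene entered the test through TAC alone. Its close paralog Acaa1a, which may share reads with it, was at 6.77, 8.32 and 6.997, 17.8, 17.5 and 16.4 and 7.45, 11.5 and 9.69 FPKM, so both were highest in TAC, and the value of either is uncertain.

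Of the 3 helpers for unsaturated chains, 1 fell in TAC (33.3%, beside 37.7% of all genes tested). Decr1, the dienoyl-CoA reductase, was at 67.2, 69.4 and 64.5 FPKM in sham, 36.9, 46.9 and 51.4 in TAC and 55.4, 44.8 and 52.5 in TAC+PUE, with all overloaded hearts below all sham hearts, and fell by 0.58 ± 0.14 (adjusted p = 0.00473) in TAC, though with the rRNA-like transcripts removed it was -0.080 (adjusted p = 0.584). The isomerase genes did not pass. Eci2 was at 14.2, 15.2 and 13.9 FPKM in sham, 8.15, 12.2 and 12.5 in TAC and 14.3, 13.4 and 13.6 in TAC+PUE, and its -0.39 ± 0.16 (adjusted p = 0.0523) in TAC became -0.47 (adjusted p = 0.0395) without TAC 2 and -0.49 (adjusted p = 0.032) without TAC 3. Eci1 was at 128, 153 and 126 FPKM in sham, 115, 145 and 149 in TAC and 110.0, 117 and 126 in TAC+PUE with all groups overlapping. The signs of Eci1 and Eci2 in TAC against sham depended on the scaling.

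Electron transfer flavoprotein collects the electrons of the dehydrogenases, and its partner chains, encoded by Etfa and Etfb, moved in opposite directions. Etfa was at 165, 182 and 162 FPKM in sham, 59.4, 90.3 and 94.6 in TAC and 139, 110.0 and 128 in TAC+PUE, and the groups did not overlap. It fell by 1.07 ± 0.18 (adjusted p = 0.000496) in TAC and rose by 0.64 ± 0.20 (adjusted p = 0.0265) in TAC+PUE. The rise was lost without TAC 1, at 0.43 (adjusted p = 0.0643), TAC+PUE 1, at 0.57 (adjusted p = 0.0819), or TAC+PUE 3, at 0.63 (adjusted p = 0.0619), by the median ratio, at 0.34 (adjusted p = 0.112), and with the rRNA-like transcripts removed, at 0.33 (adjusted p = 0.121). Etfb was at 157, 167 and 133 FPKM in sham, 235, 273 and 255 in TAC and 128, 176 and 172 in TAC+PUE. Its TAC hearts lay above all others, with log2 fold changes of 0.74 ± 0.14 (adjusted p = 0.00104) in TAC and -0.69 ± 0.17 (adjusted p = 0.0114) in TAC+PUE, both called under all 4 scalings. Etfdh, the dehydrogenase that passes these electrons to ubiquinone, was at 65.3, 67.0 and 63.5 FPKM in sham, 32.4, 40.4 and 42.0 in TAC and 54.6, 44.6 and 49.5 in TAC+PUE, and so followed Etfa in its order of groups. It fell by 0.76 ± 0.13 (adjusted p = 0.000603) in TAC, and with the rRNA-like transcripts removed was -0.27 (adjusted p = 0.0661). Its TAC+PUE value was 0.37 ± 0.16 (adjusted p = 0.0923), and passed in a joint fit of the 9 libraries (adjusted p = 0.0356).

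A ratio of partner genes within a heart is the same under every scaling. Etfa to Etfb was 1.05, 1.09 and 1.21 in sham, 0.253, 0.33 and 0.371 in TAC and 1.09, 0.626 and 0.743 in TAC+PUE. All TAC hearts lay below all others, and TAC+PUE 1 was within the sham range. Acadm to Acads was 5.33, 4.27 and 5.11 in sham, 1.43, 1.29 and 1.49 in TAC and 4.43, 2.84 and 2.86 in TAC+PUE. Acadl to Acadvl was 2.09, 1.82 and 2.14 in sham, 0.858, 1.02 and 1.06 in TAC and 2.1, 1.47 and 1.79 in TAC+PUE. In these 3 ratios TAC overlapped neither other group. That gives a two-sided exact permutation p of 0.10 in TAC against sham and in TAC+PUE against TAC. It is the smallest that 3 hearts against 3 allow, and 8 ratios were computed. Etfdh to Etfb, Cpt1a to Cpt1b and Acaa1b to Acaa1a, the last a description, gave 0.10 in both comparisons too. In Etfa to Etfb, Acadm to Acads and Acadl to Acadvl the order of TAC+PUE was led by TAC+PUE 1, the library of lowest Myl7 in its group.

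**Figure D4:**
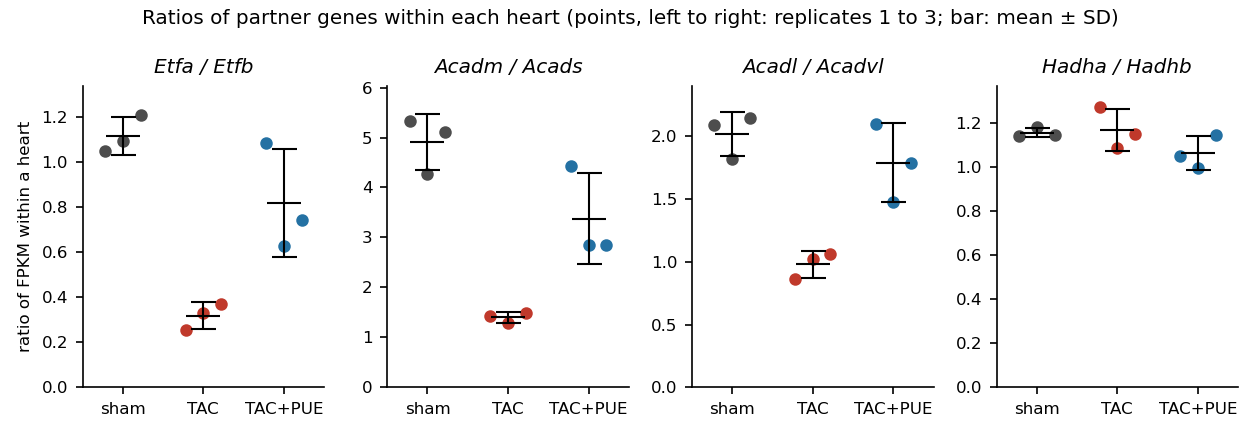
Ratio of the FPKM of partner genes within each heart, with points for replicates 1 to 3 from left to right and bars the mean ± SD (n = 3). Etfa to Etfb, Acadm to Acads and Acadl to Acadvl are lowest in the 3 TAC hearts, with no overlap, while Hadha to Hadhb stays between 0.999 and 1.28 in all 9 hearts.

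Thioesterases release free fatty acids from acyl-CoA, and Ucp3 is a carrier of the inner membrane, known as a gene that follows the supply of fatty acids in muscle. Ucp3 had the largest fall of the 34. It was at 29.1, 32.1 and 30.1 FPKM in sham, 3.86, 4.12 and 7.99 in TAC and 18.3, 13.7 and 16.3 in TAC+PUE, with 3 separate ranges and TAC+PUE in the middle. The log2 fold change was -2.37 ± 0.21 (adjusted p = 3.29e-05) in TAC and 1.49 ± 0.23 (adjusted p = 0.00328) in TAC+PUE against TAC, a ratio of means of 0.175 and of 3.02, and over the 4 scalings -2.49 to -1.92 and 1.21 to 1.49. Acot13, a thioesterase at mitochondria, was at 206, 205 and 216 FPKM in sham, 76.6, 119 and 116 in TAC and 195, 152 and 158 in TAC+PUE, again with no overlap between groups. It fell by 1.03 ± 0.17 (adjusted p = 0.000548) and rose by 0.71 ± 0.20 (adjusted p = 0.0179), though the rise was 0.60 (adjusted p = 0.0634) without TAC+PUE 1 and 0.40 (adjusted p = 0.0747) by the median ratio, and 0.39 (adjusted p = 0.0777) with the rRNA-like transcripts removed. Acot2, the thioesterase of the matrix, was at 33.9, 38.8 and 33.7 FPKM in sham, 34.5, 37.7 and 33.8 in TAC and 27.6, 31.2 and 29.4 in TAC+PUE. Sham and TAC overlapped, at -0.00 ± 0.12 (95% interval -0.26 to 0.26) with a sign that depended on the scaling, and TAC+PUE lay lowest without passing against TAC, at -0.26 ± 0.14 (adjusted p = 0.17). That difference passed by the median ratio, at -0.56 (adjusted p = 0.0144), and with the rRNA-like transcripts removed, at -0.57 (adjusted p = 0.0148), where TAC against sham passed too, at 0.49 (adjusted p = 0.0105).

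Among the 4 members of storage and lipolysis, only Plin5 passed in these comparisons with the values as deposited. Plin5, the droplet coat protein of oxidative tissues that ties droplets to mitochondria, was at 28.8, 38.6 and 27.7 FPKM in sham, 58.0, 59.0 and 54.9 in TAC and 34.1, 39.5 and 34.1 in TAC+PUE. TAC lay above every other heart and the other groups overlapped. Plin5 rose by 0.85 ± 0.14 (adjusted p = 0.000553) in TAC and fell by 0.66 ± 0.14 (adjusted p = 0.00646) in TAC+PUE, under all 4 scalings. Pnpla2, adipose triglyceride lipase, was at 51.3, 59.5 and 49.2 FPKM in sham, 54.4, 60.9 and 68.8 in TAC and 54.9, 59.1 and 65.1 in TAC+PUE and did not pass, at 0.20 ± 0.13 (adjusted p = 0.219) and -0.04 ± 0.16 (adjusted p = 0.869). By the median ratio it passed in both, at 0.35 (adjusted p = 0.00588) and -0.34 (adjusted p = 0.043). Lipe, hormone-sensitive lipase, was at 7.16, 7.60 and 7.34 FPKM in sham and 5.07, 6.08 and 6.74 in TAC, a difference of -0.27 ± 0.13 (adjusted p = 0.0849) that was -0.35 (adjusted p = 0.0275) without TAC 3. Dgat2, which makes triglyceride, was at 49.99 to 79.6 FPKM with all groups overlapping. The signs of Lipe and Dgat2 depended on the scaling in both comparisons.

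TAC+PUE hearts were close to sham in many of the 34 genes, and 2 stayed lower. In a joint fit of the 9 libraries, Acsl1 was lower in TAC+PUE than in sham, at -0.54 ± 0.11 (adjusted p = 0.0105) and so was Ucp3, at -0.89 ± 0.21 (adjusted p = 0.0212), and no member was higher. Over all 12222 genes tested, 1.46% were lower and 11.8% higher. At an unadjusted p under 0.05 the members gave 10 lower and 0 higher. The share of all genes at that threshold was not computed, so these counts are read no further. Cd36, at -0.54 ± 0.17, was next (adjusted p = 0.0548). The members' median was -0.19 against 0.11 for all genes. The Acsl1 call was lost without sham 1, at -0.55 (adjusted p = 0.0587), or sham 3, at -0.55 (adjusted p = 0.0598), and the Ucp3 call without sham 1, at -0.92 (adjusted p = 0.0666), sham 2, at -0.85 (adjusted p = 0.0557), sham 3, at -0.89 (adjusted p = 0.0795), or TAC+PUE 2, at -0.78 (adjusted p = 0.0801). Without TAC+PUE 1, 5 members were lower, beside 297 of the 12222 genes tested. By the median ratio 17 members were lower, where 6.47% of all genes were, and 16 with the rRNA-like and mitochondrial transcripts removed, where 5.62% were.

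The count of members called depended on how the libraries were scaled. In TAC against sham, 16 were lower and 6 higher with the values as deposited, 15 and 8 by the median ratio, 5 and 13 with the rRNA-like transcripts removed, and 21 and 6 with the mitochondrial mRNAs removed as well. Of all genes, 37.7% were lower and 25.3% higher, then 35.8 and 35.2%, 21.4 and 47.9%, and 46.7 and 22.9%. The median ratio added Acacb and Pnpla2 as higher and lost Cpt2. With the rRNA-like transcripts removed Slc27a1, Acacb, Echs1, Acaa2, Eci1, Acot2 and Pnpla2 were added as higher, at 0.49 to 0.69, and with the mitochondrial mRNAs removed as well Cpt1b, Hadh, Eci2, Lipe and Dgat2 were added as lower, at -0.76 to -0.33. The median of all genes was -0.12, 0.01, 0.28 and -0.22 on the log2 scale in the same order, and that of the members -0.40, -0.25, 0.07 and -0.52, so the members' median lay below that of all genes each time. TAC+PUE against TAC had 6 lower and 6 higher, then 12 and 3, 10 and 3, and 7 and 6, where 5.45% of all genes were lower and 32.9% higher, then 20.2 and 21.1%, 18.7 and 20.3%, and 8.85 and 33.9%. Acacb was added as lower under all 3 other scalings, Acaa2, Eci1 and Acot2 by the median ratio and with the rRNA-like transcripts removed, and Acsl1 and Pnpla2 by the median ratio. Fabp3, Etfa and Acot13 were no longer higher by the median ratio or with the rRNA-like transcripts removed. The median of all genes was 0.24, 0.00, -0.01 and 0.20 and that of the members 0.08, -0.21, -0.22 and 0.03. Cd36, Cpt1a, Etfa, Acot13 and Ucp3 were lower and Mlycd, Acadvl, Acads, Etfb and Plin5 higher in TAC under all 4. Cd36, Cpt1a and Ucp3 were higher in TAC+PUE than in TAC under all 4, and Mlycd, Acadvl, Acads, Etfb and Plin5 lower. Acsl1 and Ucp3 were lower in TAC+PUE than in sham under all 4.

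**Figure D5:**
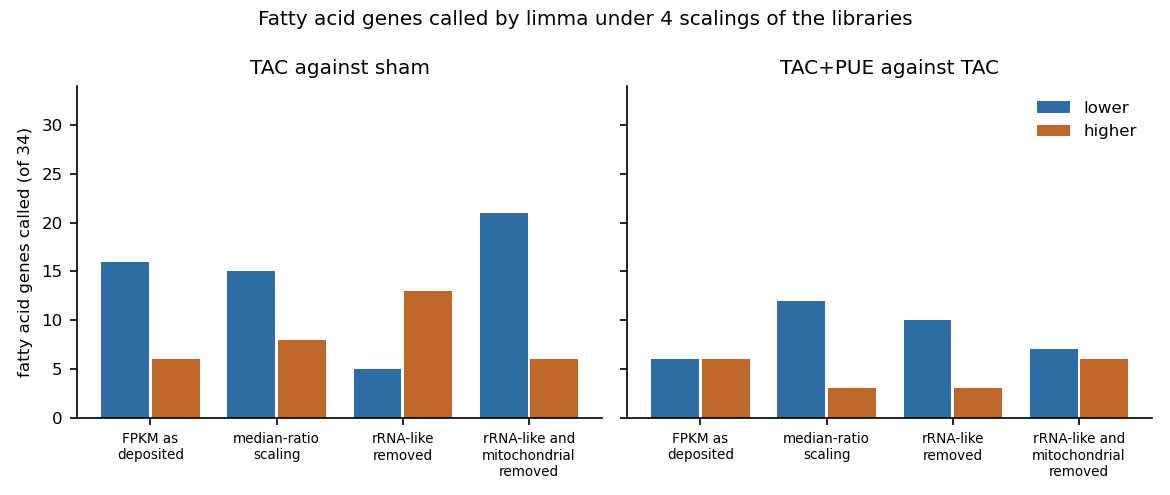
Number of the 34 genes lower (blue) and higher (orange) at an adjusted p under 0.05 in limma with the libraries scaled in 4 ways, for TAC against sham (left) and TAC+PUE against TAC (right). Lower calls in TAC range from 5 to 21 and higher calls from 6 to 13.

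Summed over the 34 genes, the level was 4933 to 5076 FPKM in sham, 2986 to 3915 in TAC and 3903 to 4389 in TAC+PUE, with no overlap between sham and the other groups. As a share of all FPKM it was 1.72 to 1.96% in sham, 1.59 to 1.78% in TAC and 1.63 to 1.75% in TAC+PUE, where the groups overlapped. As a share of the FPKM left without mitochondrial mRNAs and rRNA-like transcripts it was 2.91 to 3.03%, 1.78 to 2.01% and 1.95 to 2.39%, where TAC and TAC+PUE met and sham lay apart. Fabp3 had the highest level of the 34 in every heart.

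Other genes of the pathway, 74 listed by role and 71 tested, had 24 lower and 13 higher in TAC against sham, and 6 lower and 17 higher in TAC+PUE against TAC. As shares of the 71 these were 33.8 and 18.3%, beside 37.7 and 25.3% of all genes, and 8.45 and 23.9%, beside 5.45 and 32.9%. For uptake and activation, mitochondrial oxidation, peroxisomal oxidation, storage and lipolysis, and synthesis and desaturation in turn, the share lower in TAC was 53.8, 27.3, 41.2, 29.4 and 15.4%, and the share higher 7.69, 9.09, 17.6, 17.6 and 38.5%. Of 13 other uptake and activation genes, 7 fell and 1 rose in TAC. Angptl4, an inhibitor of lipoprotein lipase, was at 4.55, 4.25 and 3.89 FPKM in sham, 0.810, 1.03 and 1.01 in TAC and 5.81, 3.76 and 2.82 in TAC+PUE. It was lowest in TAC together with Lpl, at -1.42 ± 0.12 and 1.35 ± 0.20. In TAC it lay near the filter of 1 FPKM, which it passed only through the group where it is high. Its differences are therefore a description, and its calls, which the counts hold, are read no further. Vldlr, the receptor for very low density lipoprotein, fell by 1.14 in TAC (adjusted p = 8.59e-05), the synthetase Acsl4 fell by 0.96 (adjusted p = 0.00041) and the binding protein Fabp5 fell by 0.88 (adjusted p = 0.00168). Each of them was higher in TAC+PUE than in TAC, at 0.65, 0.90 and 0.92, though Vldlr was 0.35 (adjusted p = 0.0562) by the median ratio, 0.34 (adjusted p = 0.053) with the rRNA-like transcripts removed and 0.74 (adjusted p = 0.0721) without the libraries of high Myl7.

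Of 11 other genes of mitochondrial beta-oxidation, 3 fell and 1 rose in TAC. Etfrf1, a regulator of electron transfer flavoprotein, was at 17.0, 14.6 and 16.5 FPKM in sham, 4.16, 6.09 and 6.04 in TAC and 14.3, 11.4 and 10.7 in TAC+PUE, the order of Etfa (-1.42 ± 0.15, adjusted p = 5.83e-05). The thioesterase Acot9 and the dehydrogenase Acad11 fell, at -0.85 and -0.71 (adjusted p = 0.000218 and 0.00108), and Echdc2 rose by 0.57 (adjusted p = 0.00346). With the rRNA-like transcripts removed Acad11 was -0.25 (adjusted p = 0.106). Of 17 peroxisomal genes, 7 fell and 3 rose. The octanoyltransferase Crot and the importer Abcd3 fell, at -1.16 and -1.15 (adjusted p = 0.000164 and 0.00013). Acaa1a, whose levels stand beside Acaa1b above, rose by 1.13 (adjusted p = 6.07e-05).

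Of 17 other genes of storage and lipolysis, 5 fell and 3 rose in TAC. G0s2, an inhibitor of adipose triglyceride lipase, was at 37.0, 44.2 and 38.8 FPKM in sham, 95.4, 86.0 and 73.6 in TAC and 51.4, 53.4 and 75.3 in TAC+PUE and rose by 1.06 ± 0.14 (adjusted p = 0.000134). Gpam and Agpat2, which add acyl chains on the way to triglyceride, fell, at -0.87 and -0.71 (adjusted p = 0.000273 and 0.0151), Agpat2 being at -0.24 (adjusted p = 0.248) with the rRNA-like transcripts removed, and Bscl2, seipin, rose by 0.62 (adjusted p = 0.00105). Of 13 genes of fatty acid synthesis and desaturation, 2 fell and 5 rose. The sterol regulator Srebf2 rose by 0.98 and the desaturase Scd2 by 0.83 (adjusted p = 0.000216 and 0.00277), and the elongase Elovl5 fell by 1.16 (adjusted p = 0.000995). Fasn, fatty acid synthase, was at 2.79, 3.95 and 2.59 FPKM in sham, 14.5, 4.97 and 26.1 in TAC and 4.11, 5.43 and 5.28 in TAC+PUE, a rise of 1.74 ± 0.42 (adjusted p = 0.00455) with a wide spread in TAC. The fat cell genes Adipoq and Plin1 were at 1.58, 0.139 and 3.29 and at 1.11, 0.019 and 1.69 FPKM in TAC 1 to 3, in the same order of hearts as Fasn. Scd1, also listed as an adipocyte marker, had that order too, at 9.32, 4.78 and 22.5. Other genes of that list did not, with Fabp4 at 54.9, 67.2 and 60.5, Lpl at 131, 142 and 138 and Lipe at 5.07, 6.08 and 6.74. The part of fat cells in the result was not tested.

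The sums of several lists of cell and chamber markers differed between the groups too. Of 14 cardiomyocyte markers, 3 were lower and 7 higher in TAC (21.4 and 50%, beside 37.7 and 25.3% of all genes tested). Their sum was 13277 to 15046 FPKM in sham, 19150 to 21030 in TAC and 14658 to 15674 in TAC+PUE. The 3 lower were Pln, at -2.09, Ttn, at -1.08, and Ryr2, at -0.67, and Pln and Ttn were higher in TAC+PUE than in TAC, at 1.66 and 0.89. All 6 red blood cell markers were higher in TAC (100%, beside 25.3% of all genes tested), with sums of 1056 to 1283, 5278 to 7697 and 1528 to 6070 FPKM. The 7 atrial markers summed to 78.7 to 83.1, 596 to 932 and 630.4 to 3789 FPKM, with Bmp10 or Sln listed at 0 in TAC 2 or TAC+PUE 2. Of 13 adipocyte markers, 10 were in both tables, summing to 306 to 378, 213 to 256 and 254 to 301 FPKM, a list that holds Lpl and Lipe themselves. Lpl and Fabp4 made up most of that sum, at means of 238 and 98.7 FPKM in sham and 137 and 60.9 in TAC. Adipoq, Plin1, Retn and Ucp1 were each listed at 0 in at least 1 library. Of 10 endothelial markers 4 were lower and 5 higher in TAC (40 and 50%). Of 9 fibroblast markers these were 2 and 4, and of 9 macrophage markers 2 and 4 (each 22.2 and 44.4%). In sham, TAC and TAC+PUE the endothelial sums were 254 to 281, 240 to 291 and 257 to 340 FPKM, with all groups overlapping. The fibroblast sums were 222 to 235, 410 to 478 and 362 to 491 FPKM. The macrophage sums were 269 to 299, 471 to 560 and 366 to 473 FPKM. Without the 3 libraries of Myl7 at 100 FPKM or more, TAC 3 and TAC+PUE 2 and 3, the calls of Cd36, Cpt1a and Ucp3 stood in both comparisons, in fits where TAC+PUE 1 is alone and is assumed to vary like TAC. These fits drop libraries by Myl7 alone, and the kept TAC 1 and TAC+PUE 1 still held more Myl7 than any sham heart. The part of these cells in any of the results was not tested.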

How the data were processed

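RNA of whole hearts was sequenced by the study's authors on an Illumina NovaSeq instrument from stranded paired-end libraries, 3 mice each of sham, TAC and TAC+PUE. Reads were mapped with Hisat2, transcripts assembled and quantified with StringTie and values taken with Ballgown. The build named in the submitters' processing notes is mm9, and how strand entered the counts of overlapping, antisense or paralogous genes is not stated in them or in the paper. The authors deposited FPKM per gene in 2 tables, for TAC with sham and for TAC+PUE with TAC, in which the TAC values of the 13646 shared genes are identical. The larger group mean is at least 0.500 FPKM for every gene listed. The methods of the study name TPM, and the test set for TPM was run on FPKM with the same settings. Whole reads could not be recovered (of 1699 low genes at most 8 shared 1 ratio between libraries), so the depth is unknown and no count test was run. The deposited lists of lncRNAs were not used.

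The main test was limma 3.58.1 in R 4.3.3 with eBayes and trend on log2(FPKM + 1). Genes entered it if 3 or more of the 6 libraries compared held 1 FPKM or more (of all 9 in the joint fit for TAC+PUE against sham), and it was two-sided, with Benjamini-Hochberg adjustment over all genes tested and a threshold of 0.05. Fold changes are on that scale, which understates those of low genes. The limma fit was tested on simulated data with known changes. Each library is a mouse. Ratios within a heart were compared by a two-sided exact permutation test with scipy 1.17.1, and tables and plots were made with Python 3.11.15, pandas 2.3.3, numpy 2.4.6 and matplotlib 3.10.9. Promoter windows and positions come from RefSeq on GRCm38.p6, matched by gene symbol. All 34 genes are named, and of each other list of the pathway the 4 called genes of largest absolute change in TAC against sham, of which 1 is not reported here. The members, the lists, the ratios and the tests were chosen with earlier results of these data known. Alternatives were pseudocounts of 0.1 and 5, no filter, a filter at 10 FPKM, 3 other scalings, another set of libraries in the fit, a replicate block, each library left out, and the libraries of high Myl7 left out.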

Additional observations from a re-analysis of the deposited data

How the results depend on the processing

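Other pseudocounts and no filter moved the counts of the 34 genes by at most 1, with Cpt2 lost in TAC against sham at a pseudocount of 0.1 and with no filter, Eci2 added there at a pseudocount of 5, at -0.29 (adjusted p = 0.0447), and Acadvl lost in TAC+PUE against TAC at a pseudocount of 5. A joint fit of 9 libraries added Cpt1b, at -0.63 (adjusted p = 0.041), and Eci2, at -0.39 (adjusted p = 0.0387), in TAC against sham and Cpt1b, at 0.70 (adjusted p = 0.0326), Acadl, Etfdh and, among the other genes named, G0s2, at -0.51 (adjusted p = 0.0237), in TAC+PUE against TAC. The calls that hold under every scaling are named in the report. Depth is unknown, so what it limits cannot be given. Where a value below differs from the main one the cause was not tested, except that a filter at 10 FPKM and a left-out library leave fewer genes or hearts. The filter at 10 FPKM gave 1148 genes lower and 1096 higher in TAC against sham, 299 and 793 in TAC+PUE against TAC, and 72 and 515 in TAC+PUE against sham, beside 4410 and 2955, 642 and 3883, and 178 and 1437 in the main test.

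By the median ratio the sign turned for Acaa2 at 0.15 and Acot2 at 0.15 in TAC against sham. For TAC+PUE against TAC, 2387 genes were lower and 2482 higher, 12 members lower and 3 higher with a median of -0.21, and the sign turned for Cpt2 at -0.012, Slc25a20 at -0.25, Hadha at -0.17, Hadhb at -0.039, Hadh at -0.25, Decr1 at -0.12, Lipe at -0.18, Dgat2 at -0.23 and Acad11 at -0.055. TAC+PUE against sham had 791 genes lower and 828 higher, with 17 members lower and a median of -0.35.

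With the rRNA-like transcripts removed, TAC against sham had 2496 genes lower and 5597 higher, 5 members lower and 13 higher with a median of 0.074, and the sign turned for Cpt2 at 0.057, Slc25a20 at 0.070, Hadha at 0.067, Hadhb at 0.055, Hadh at 0.19, Acaa2 at 0.50, Eci2 at 0.078, Acot2 at 0.49, Lipe at 0.17 and Dgat2 at 0.30. TAC+PUE against TAC had 2202 genes lower and 2388 higher, 10 members lower and 3 higher with a median of -0.22, and turned signs for Cpt2 at -0.020, Slc25a20 at -0.26, Hadha at -0.18, Hadhb at -0.047, Hadh at -0.26, Decr1 at -0.13, Lipe at -0.19, Dgat2 at -0.24 and Acad11 at -0.063. TAC+PUE against sham had 3792 genes higher and a members' median of -0.018. With the mitochondrial mRNAs removed as well, the sign turned for Slc27a1 at -0.075, Echs1 at -0.011 and Eci1 at -0.13 in TAC against sham and for Slc25a20 at -0.0056 in TAC+PUE against TAC, where 1042 genes were lower, and TAC+PUE against sham had 686 genes lower and 849 higher, 16 members lower and a median of -0.37. A separate fit of 6 libraries for TAC+PUE against sham gave 322 genes and 8 members lower.

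Without the libraries of high Myl7 the sign turned for Slc27a1 at -0.090, Eci1 at -0.063 and Acot2 at 0.027 in TAC against sham and for Dgat2 at -0.045 and Scd2 at 0.11 in TAC+PUE against TAC, and TAC+PUE against sham had 74 genes lower and 430 higher with 1 member lower. The calls of Fabp3, Acadvl and Plin5 in TAC+PUE against TAC did not pass there, at 0.81 (adjusted p = 0.0864), -0.44 (adjusted p = 0.367) and -0.76 (adjusted p = 0.0747).

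With each library left out in turn, the members' median in TAC against sham was -0.50 to -0.22, and Slc27a1 ranged over -0.090 to 0.13, Acaa2 -0.077 to 0.082, Eci1 -0.063 to 0.13 and Acot2 -0.050 to 0.061. In TAC+PUE against TAC, 268 to 840 genes were lower and 2578 to 4312 higher, 3 to 7 members were higher, 3 of them without TAC+PUE 1, and the members' median was -0.029 to 0.17, with Slc27a1 at -0.16 to 0.083, Acsl1 at -0.063 to 0.034, Slc25a20 at -0.11 to 0.14, Hadh at -0.095 to 0.18, Echs1 at -0.13 to 0.024, Pnpla2 at -0.12 to 0.047, Lipe at -0.010 to 0.17, Dgat2 at -0.053 to 0.16 and Scd2 at -0.26 to 0.11. Of the other pathway genes, the calls of Agpat2, Fasn and Srebf2 in TAC+PUE against TAC were lost without 1 library, with Fasn at -0.70 (adjusted p = 0.128) without TAC 3. For TAC+PUE against sham, 30 to 297 genes and 0 to 5 members were lower and 357 to 1769 genes higher, the 0 members without sham 1 or sham 3.

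Equal replicate numbers share only a number: deviations of same-numbered libraries from their group means correlated at -0.26 to 0.30. With a replicate block, 18 members were lower and 6 higher in TAC against sham, 5 lower and 7 higher in TAC+PUE against TAC, and 2 lower in TAC+PUE against sham. The counts of all genes lower and higher stayed within 1.5-fold of the main test in each comparison. Among the genes named, the block added the calls of Cpt1b, at -0.63 (adjusted p = 0.000126), and Eci2, at -0.39 (adjusted p = 0.0269), in TAC against sham and of Cpt1b in TAC+PUE against TAC, at 0.70 (adjusted p = 0.0376), lost those of Acadvl, at -0.43 (adjusted p = 0.0578), and Srebf2, at -0.48 (adjusted p = 0.0663), and changed no other.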
